A study of Homo sapiens with 6 samples.

Results

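The 39 genes described here are a list of interferon-stimulated genes, genes that cells turn on after an interferon signal. They were taken from a list of names, drawn up with earlier results of these data known, and all 39 were found by RefSeq symbol among 40448 Entrez gene IDs, of which 37997 had a symbol. The gene now called RIGI was formerly DDX58. Expression was measured by RNA sequencing in KYSE150, an established line from a human squamous carcinoma of the oesophagus. Mock clones 1, 4 and 5 carried the pIRES2-EGFP vector, and NCCRP1 clones 1, 6 and 17 carried a vector expressing human NCCRP1, all as stable transfectants. No interferon treatment is named for any clone. Each clone gave 1 library, so each group held 3 libraries, and a feature of a single clone cannot be told apart from the effect of its vector. The p-values below measure only the spread between these 6 libraries.

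Interferons bind receptors that activate the JAK kinases, which phosphorylate STAT proteins such as STAT2. STAT2 acts with IRF9 in a complex that binds the interferon-stimulated response element (ISRE) in promoters, while interferon gamma acts through the gamma-activated site (GAS). The products block viral RNA and protein synthesis, sense foreign RNA, tag proteins with ISG15 and process antigens, and many tumour lines keep part of this set on without added interferon.

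Many members of the list, though not all, share a promoter sequence. Of the 39 genes, 32 had a promoter window in the RefSeq tables (GRCh38.p14), running from 250 bases before to 50 bases after a start. An ISRE was searched as GAAANNGAAA or its complement TTTCNNTTTC, and a GAS as TTCNNNGAA, which reads alike on both strands. Elements with another spacing are missed by this search. Of the 32 genes, 21 (65.6%) held an ISRE match in at least 1 window, against 4.38% of all 27305 genes with a window. A GAS match stood in 10 of the 32 (31.2%), against 9.38% of all genes. The following 6 sequences are the 200 bases before the start of genes whose clone patterns are compared below, 5′ to 3′ on the gene's strand, with ISRE matches in capitals.
IFIT1 (chr10:89392423-89392622, + strand): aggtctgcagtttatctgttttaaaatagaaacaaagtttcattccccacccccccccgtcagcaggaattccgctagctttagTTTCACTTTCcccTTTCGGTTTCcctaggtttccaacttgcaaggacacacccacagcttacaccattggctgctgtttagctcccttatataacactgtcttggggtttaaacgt
IFIT3 (chr10:89327797-89327996, + strand): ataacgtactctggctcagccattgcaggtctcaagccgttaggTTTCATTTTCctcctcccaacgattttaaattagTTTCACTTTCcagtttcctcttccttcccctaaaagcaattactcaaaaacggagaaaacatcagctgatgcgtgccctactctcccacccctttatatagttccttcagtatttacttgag
RSAD2 (chr2:6877577-6877776, + strand): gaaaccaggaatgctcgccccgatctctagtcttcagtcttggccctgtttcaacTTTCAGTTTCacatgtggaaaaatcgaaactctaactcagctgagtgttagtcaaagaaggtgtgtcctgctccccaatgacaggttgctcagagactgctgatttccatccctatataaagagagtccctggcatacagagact
ISG15 (chr1:1013297-1013496, + strand): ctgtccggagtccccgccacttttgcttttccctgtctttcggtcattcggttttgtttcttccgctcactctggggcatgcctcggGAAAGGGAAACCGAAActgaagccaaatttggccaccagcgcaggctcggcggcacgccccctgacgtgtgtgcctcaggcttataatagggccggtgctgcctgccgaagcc
BST2 (chr19:17405631-17405830, - strand): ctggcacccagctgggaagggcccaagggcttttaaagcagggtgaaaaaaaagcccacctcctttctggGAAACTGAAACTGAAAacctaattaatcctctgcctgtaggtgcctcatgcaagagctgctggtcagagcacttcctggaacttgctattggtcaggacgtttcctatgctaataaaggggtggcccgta
IFITM1 (chr11:313840-314039, + strand): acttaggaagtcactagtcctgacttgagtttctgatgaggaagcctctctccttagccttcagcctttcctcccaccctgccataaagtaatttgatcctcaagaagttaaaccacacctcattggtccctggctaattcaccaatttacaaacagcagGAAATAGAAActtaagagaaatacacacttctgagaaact
Counted from the start, with the base before it as -1, the matches began at -116 and -103 in IFIT1 and at -156 and -122 in IFIT3. In ISG15 and BST2 a pair of matches overlapped. RSAD2 and IFITM1 held 1 match each in the stretch shown. IFIT3 and RSAD2 each had 2 windows, of which 1 is shown. The other IFIT3 window had matches at -94 and -51. The other RSAD2 window had no match in the 200 bases before its start. A match is a run of letters and not a measured binding site.

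The libraries held 12477 to 12821 genes above 0, with estimated depths of 12292000 to 18064000 reads. Values are log2 RPKM (reads scaled by transcript length and library depth), and a gene under 1 RPKM was listed at 0. Some zeros mark a missing estimate instead, because TPT1 and UBB, genes that all cells express, had a 0 in every library. The transgene checked the labels: NCCRP1 had a value of 0 in every mock clone, 6.19 in NCCRP1 clone 1, 8.07 in clone 6 and 6.71 in clone 17. Sequencing run 15 held mock clones 1 and 4 with NCCRP1 clone 1, while run 14 held mock clone 5 with NCCRP1 clones 6 and 17. Of 12 squamous epithelial markers, none was at 0 in all libraries, and SOX2 was at 0 in NCCRP1 clone 6. Of 14 immune-cell markers 11, including PTPRC, CD3E and CD14, were at 0 in all libraries, as were all 8 fibroblast and 5 of 6 endothelial markers.

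Of the 39 genes, 32 were listed above 0 in at least 3 libraries and were tested, and 27 were above 0 in all 6. OAS2 was above 0 only in NCCRP1 clone 17, at 0.11. MX2, IFI44L, XAF1, CMPK2, EPSTI1 and SAMD9L were listed at 0 in every library. No member passed the test of the 3 NCCRP1 against the 3 mock clones (limma, Benjamini-Hochberg adjusted p under 0.05 over 12737 genes). The background was 0.0707% of tested genes called higher and 0.0314% called lower. At an unadjusted p under 0.05, 7 of the 32 tested members were higher, a share of 21.9% against 3.54% of all tested genes, and none was lower. Of these 7, 5 were among the 27 members above 0 in all libraries. Adjusted p-values of the tested members ran from 0.331 to 0.997. With sequencing run as a term, 4 members were higher at an unadjusted limma p under 0.05. All tested genes at that threshold, in either direction, then numbered 1231, against 934 without the term. Other settings with all 6 clones gave 6 to 9 members.

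The group means nevertheless lay mostly on one side. The NCCRP1 mean was above the mock mean for 30 of the 32 tested members (93.8%, against 46.7% of all tested genes). IRF7 and IFI16 were the exceptions. The median difference, NCCRP1 minus mock, was 0.33 on the log2 scale for the tested members and -0.02 for all tested genes. Members low in the mock clones could pass the filter through the NCCRP1 clones alone, as RSAD2 nearly did. Over the 27 members above 0 in all libraries the median was also 0.33, and 25 of the 27 had the higher mean in NCCRP1 clones. The groups did not overlap for 5 members, IFIT2, IFIT3, IFI35, RSAD2 and USP18, which is 15.6% of those tested, against 5.71% of all tested genes. All of these but RSAD2, so 4, were among the 27 members above 0 in all libraries.

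The clones of the NCCRP1 group were far apart. The tested members' mean deviation from each gene's 6-library mean was -0.35, -0.11 and -0.28 on the log2 scale in mock clones 1, 4 and 5. For the NCCRP1 group it was -0.26 in clone 1, 0.28 in clone 6 and 0.73 in clone 17. Clone 1 thus lay within the range of the mock clones, and clones 6 and 17 above it. The same mean over all tested genes stayed between -0.04 and 0.04 in every library. The SD of the list mean was 0.12 over the mock clones and 0.50 over the NCCRP1 clones. For a single member the median SD over NCCRP1 clones was 0.50 log2 units, against 0.19 for all tested genes, while over mock clones it was 0.22 against 0.21. NCCRP1 itself was lowest in clone 1 and highest in clone 6 among the NCCRP1 clones, and its relation to the list was not tested. In bulk RNA, fewer cells expressing a gene and less RNA per cell cannot be told apart.

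**Figure D1:**
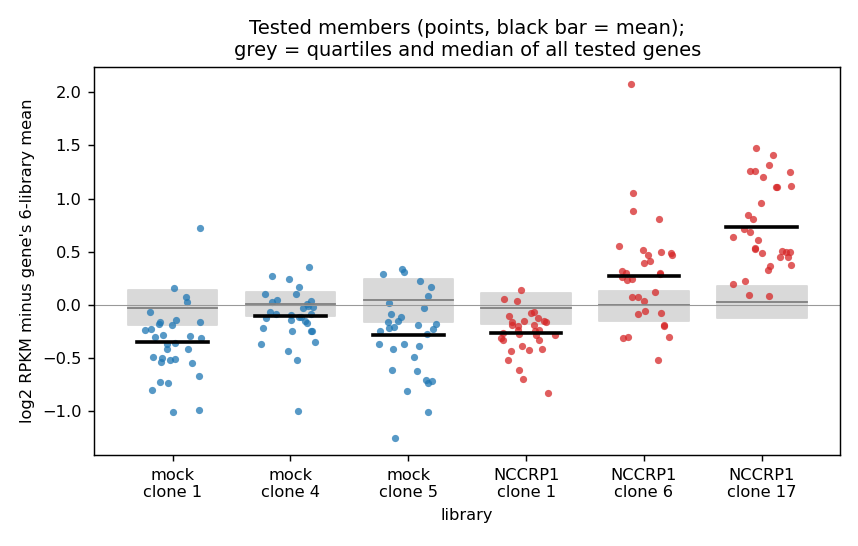
Deviation of each tested interferon-stimulated gene from its own 6-library mean (log2 RPKM, vertical axis) in each library (horizontal axis); points are the 32 genes, black bars their mean and the grey band the quartiles of all tested genes. The black bars of NCCRP1 clones 6 and 17 stand at 0.28 and 0.73, above the other 4 libraries, which lie between -0.35 and -0.11.

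**Figure D2:**
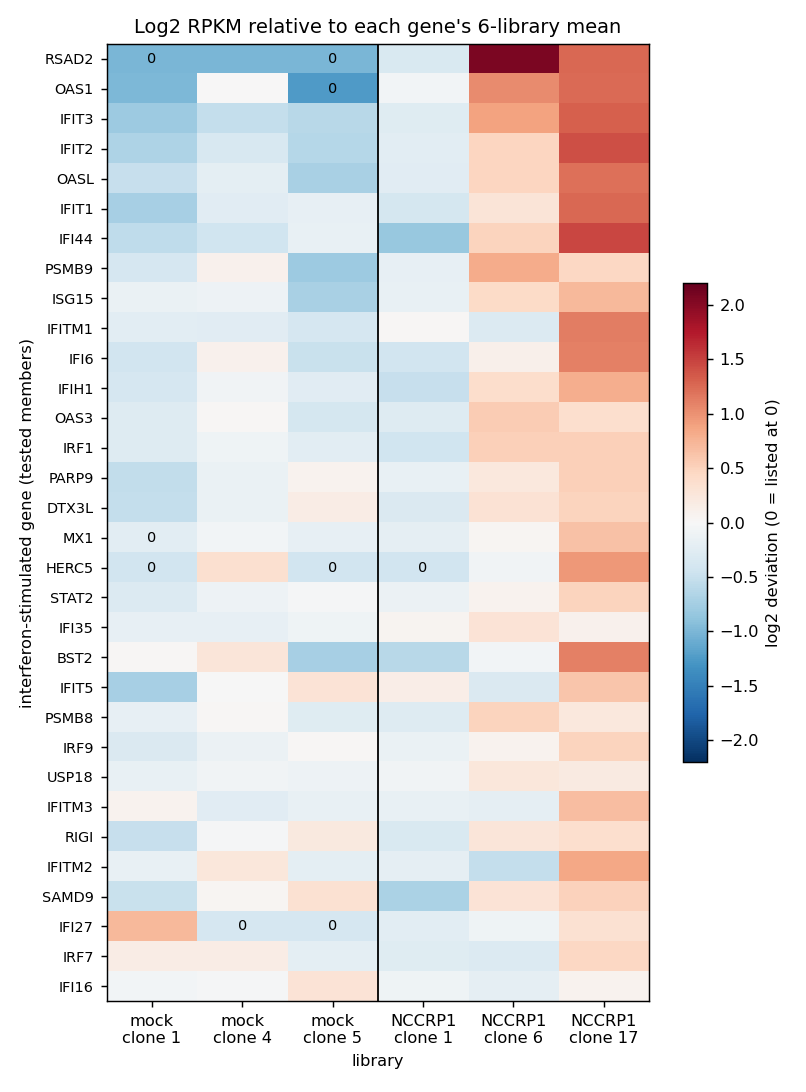
Heat map of the 32 tested interferon-stimulated genes (rows) in the 6 libraries (columns), coloured by the deviation from each gene's mean in log2 RPKM; a printed 0 marks a listed value of 0. Most rows are highest in NCCRP1 clone 17, which held the highest value of 24 of the 32 genes.

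Counted gene by gene, 30 of the 32 tested members stood above every mock clone in NCCRP1 clone 17 (26.1% of all tested genes did). In clone 6 the number was 22 (68.8%, background 22.2%), and in clone 1 it was 6 (18.8%, background 20.9%). Clone 1 was below every mock clone for 7 members (21.9%, background 29.1%), so for clone 1 both shares lay near or under the background. Of the 27 members above 0 in all libraries, 26, 19 and 5 were above every mock clone in clones 17, 6 and 1. Clone 17 was above every mock clone and at least a log2 of 1, a doubling, above the mock mean for 13 members (40.6%, background 1.46%). For clone 6 this held for 5 members (15.6%, background 1.25%) and for clone 1 for none (background 0.534%). Among the 27 members above 0 in all libraries, 10 met this criterion in clone 17 and 3 in clone 6. The others were OAS1 and RSAD2 in both clones and HERC5 in clone 17. These had listed zeros in mock clones, so their margins are of listed values and not measured doublings. At 1.5 times the mock mean in place of a doubling, the counts for clones 17, 6 and 1 were 23 (background 5.57%), 13 (background 3.64%) and 1, RSAD2 (background 2.49%). Among the 27 members above 0 in all libraries these counts were 19, 11 and 0. Clone 17 held the highest of the 6 values for 24 members (background 17.5%), clone 6 for 6 (background 13.6%) and clone 1 for none (background 13.2%). Among the NCCRP1 clones, clone 1 was lowest for 26 of the 32 members (background 38.5%). The count for clone 6 depended on mock clone 5: without it, 3 members met the criterion of a doubling.

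**Figure D3:**
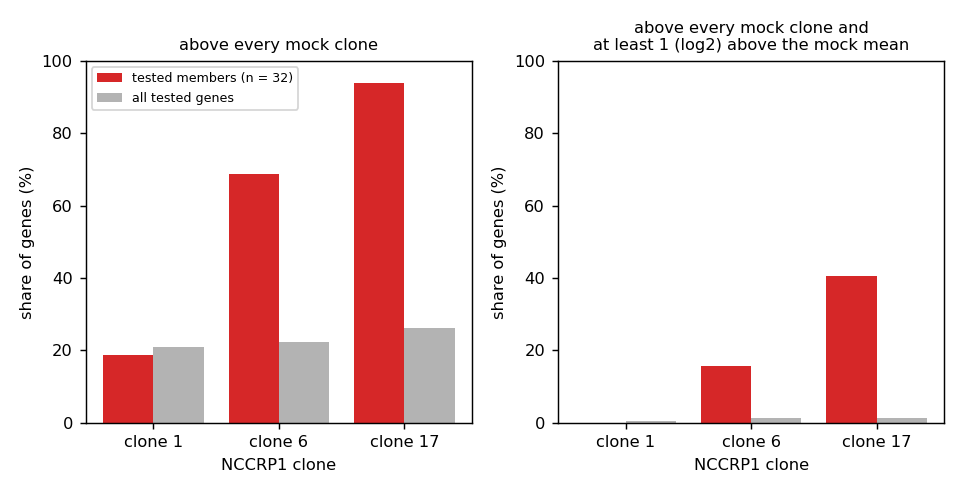
Share in percent (vertical axis, from 0) of tested interferon-stimulated genes and of all tested genes that lay above every mock clone in each NCCRP1 clone (left), and of those also at least a log2 of 1 above the mock mean (right). On the left, the shares of the list are 18.8%, 68.8% and 93.8% in clones 1, 6 and 17, beside 20.9%, 22.2% and 26.1% of all tested genes.

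Run and clone were entangled, since both high clones were read in run 14. Within run 15, NCCRP1 clone 1 was above the mean of mock clones 1 and 4 for 14 of the 32 members (background 47.6%), with a mean difference of -0.04 over the list. Within run 14, clones 6 and 17 averaged above mock clone 5 for 30 of the 32 (background 44.7%), and the mean difference was 0.79. Over all clones it was 0.50. Mock clone 5, the sole mock clone of run 14, had a list mean of -0.28, between those of mock clones 1 and 4. Clone 1 is the sole NCCRP1 clone of run 15, so its difference from clones 6 and 17 cannot be told apart from run. Without NCCRP1 clone 1 the mean difference was 0.75, and IFIT3 and RSAD2 passed the test (limma adjusted p = 0.0102 and 0.00913). These are 2 of 32 members, beside 0.188% of all tested genes called higher in that fit. That fit drops the NCCRP1 clone that was lowest on the list, so these passes are not independent support. The mock values of RSAD2 also lay at the floor, which narrows their spread. Without clone 17 the mean difference was 0.25 and no member passed.

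The IFIT genes encode proteins that bind foreign RNA ends and block its translation. IFIT3, which stabilises IFIT1 on RNA, was at 2.09, 2.38 and 2.28 log2 RPKM in mock clones 1, 4 and 5 and at 2.62, 3.78 and 4.21 in NCCRP1 clones 1, 6 and 17. All NCCRP1 clones were above all mock clones, and clone 1 was closest to them. The means were 2.25 ± 0.14 and 3.54 ± 0.82 (SD, n = 3 each), a 2.44-fold difference (log2 1.29, SE 0.35; limma adjusted p = 0.352). Against the mock mean, clone 6 stood 2.89-fold and clone 17 3.89-fold higher.

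IFIT2, an RNA-binding member also linked to cell death, had mock values of 2.74, 3.06 and 2.79 and NCCRP1 values of 3.18, 3.88 and 4.83. Its groups did not overlap either, and clone 17 was the highest. The means were 2.87 ± 0.17 and 3.96 ± 0.83 (SD, n = 3 each), a log2 difference of 1.09 (SE 0.36; limma adjusted p = 0.479). IFIT1, which recognises the cap of foreign RNA, was at 0.90, 1.39 and 1.46 in mock clones and at 1.25, 1.93 and 2.90 in NCCRP1 clones. Here clone 1 fell inside the mock range, and clone 17 was 3.13-fold above the mock mean (group difference 0.78, SE 0.37; limma adjusted p = 0.691). IFIT5 stood apart from its relatives: clone 6, at 1.32, was within the mock range of 0.91 to 1.93, and clone 17, at 2.24, was above it. These 4 genes lie together on chromosome 10. The 30 expressed neighbours of IFIT3 had a median deviation of -0.40 in clone 6 and 0.13 in clone 17, so in clone 6 IFIT3 was high where its neighbours were low. All 4 also lie within the RefSeq span of LIPA, and whether reads were counted by strand is not given in the sources used here.

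RSAD2 encodes viperin, which makes a chain-terminating nucleotide that stops viral polymerases. It was listed at 0, 0.01 and 0 in mock clones 1, 4 and 5 and at 0.68, 3.08 and 2.27 in NCCRP1 clones 1, 6 and 17. Every NCCRP1 clone was above every mock clone, and clone 6 was the highest. The listed values differed by 2.01 on average (SE 0.51; limma adjusted p = 0.331), and no fold change is given against listed zeros. At the estimated depths and transcript length, these values stand for about 102, 472 and 247 reads in the NCCRP1 clones. The value of mock clone 4, at the floor of 1 RPKM, stands for about 45 reads. A listed 0 in mock clones 1 and 5 may hide reads under that floor. RSAD2 overlaps CMPK2, a nucleotide kinase gene that was listed at 0 in all 6 libraries.

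**Figure D4:**
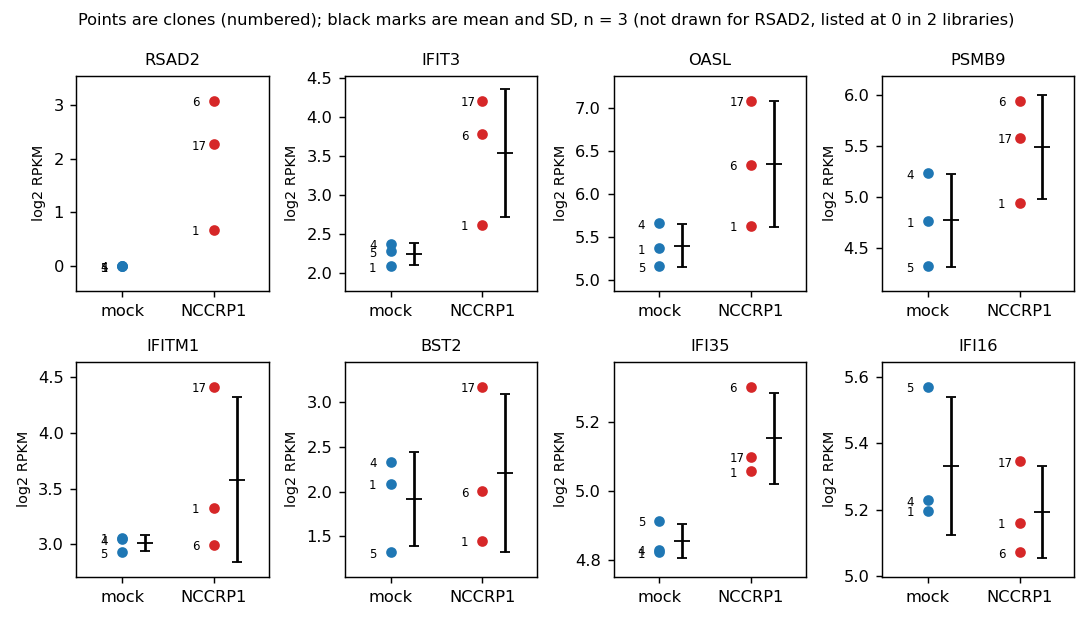
Log2 RPKM (vertical axis) of 8 interferon-stimulated genes by group, with 1 point per clone and, except for RSAD2, the group mean and SD (n = 3 each). IFIT3 and RSAD2 do not overlap between groups, IFITM1 is highest in NCCRP1 clone 17, and the groups overlap for IFI16.

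The OAS enzymes make 2-5A, the messenger that activates the RNA-cutting enzyme RNase L. OAS1 was listed at 0.26, 1.26 and 0 in mock clones and at 1.18, 2.30 and 2.50 in NCCRP1 clones. Clones 6 and 17 were above all mock clones, and clone 1 was below mock clone 4 (difference of listed values 1.49, SE 0.40; limma adjusted p = 0.346). OASL, a relative without the enzyme activity that enhances RIG-I signalling, was at 5.37, 5.66 and 5.16 in mock clones and at 5.63, 6.34 and 7.08 in NCCRP1 clones. Clone 1 was just below mock clone 4, and clone 17 was 3.21-fold above the mock mean. The means of 5.40 ± 0.25 and 6.35 ± 0.73 (SD, n = 3 each) differed by 0.95 (SE 0.32; limma adjusted p = 0.518). OAS3 was highest in clone 6, at 5.94, with clone 17 at 5.75 and mock clones between 5.00 and 5.42.

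ISG15 is a ubiquitin-like modifier, and per length it had the highest level of the list. It was at 8.06, 8.10 and 7.50 log2 RPKM in mock clones and at 8.05, 8.63 and 8.92 in NCCRP1 clones. Clone 1 was close to mock clones 1 and 4, while clone 17 was 2.05-fold above the mock mean (group difference 0.65, SE 0.25; limma adjusted p = 0.573). USP18, the protease that removes ISG15 and dampens receptor signalling, did not overlap between groups, yet its NCCRP1 clone 1 value of 3.24 and its mock clone 4 value of 3.23 were nearly equal. HERC5, the ligase that attaches ISG15, was listed at 0, 0.77 and 0 in mock clones and at 0, 0.34 and 1.38 in NCCRP1 clones, so it was above the mock clones in clone 17 alone.

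IFI6, IFI44 and IFIH1 shared a pattern in which clone 1 was low, clone 6 intermediate and clone 17 high. IFI6, an antiviral membrane protein, was at 3.48, 4.00 and 3.41 in mock clones and at 3.47, 4.01 and 5.00 in NCCRP1 clones (difference 0.53, SE 0.35; limma adjusted p = 0.850). IFI44 was at 1.60, 1.71 and 1.99 in mock clones and at 1.32, 2.65 and 3.63 in NCCRP1 clones (difference 0.76, SE 0.51; limma adjusted p = 0.855). Clone 1 was thus the lowest of all 6 libraries for IFI44, and clone 17 was 3.62-fold above the mock mean. IFIH1, which encodes the RNA sensor MDA5, was at 1.83, 2.11 and 1.95 in mock clones and at 1.68, 2.59 and 3.003 in NCCRP1 clones (difference 0.46, SE 0.30; limma adjusted p = 0.830). Its clone 17 value was 2.05-fold above the mock mean, and clone 1 again lay below every mock clone. RIGI, the other cytoplasmic RNA sensor of the list, separated the clones less, with 1.66 to 2.39 in mock clones and 1.84, 2.44 and 2.54 in NCCRP1 clones.

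Among the transcription factors of the response, STAT2, IRF1 and IRF9 had group differences of 0.30, 0.41 and 0.28, none of which passed the test. IRF1, the factor of the gamma response, was at 4.91 in clone 1, below the mock range of 5.04 to 5.24, and at 5.85 and 5.86 in clones 6 and 17. IRF9, a DNA-binding part of the complex with STAT2, was at 5.44, 5.67 and 6.09 in NCCRP1 clones, with 5.28 to 5.61 in mock clones. IRF7, the factor that amplifies interferon production, was at 4.06, 4.07 and 3.69 in mock clones and at 3.64, 3.60 and 4.35 in NCCRP1 clones. Clones 1 and 6 were therefore below every mock clone and clone 17 above (difference -0.08, SE 0.21; limma adjusted p = 0.989).

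Clones 6 and 17 also differed from each other. Clone 17 was above clone 6 for 26 of the 32 tested members and below for 6. Clone 17 exceeded clone 6 by a log2 of at least 1 for IFITM1, IFITM2, BST2 and HERC5 (12.5%, background 2.12%). No member was higher in clone 6 by that margin (background 0.738%). With 1 library per clone these differences have no replicate check.

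The IFITM proteins block fusion of viruses with cell membranes, and all 3 were highest in clone 17. IFITM1 was at 3.06, 3.05 and 2.93 in mock clones and at 3.33, 2.999 and 4.42 in NCCRP1 clones. Clone 6 lay within the mock range, and clone 17 was 2.64-fold above the mock mean (group difference 0.57, SE 0.31; limma adjusted p = 0.771). IFITM2 was at 1.08, 1.48 and 1.02 in mock clones and at 1.04, 0.71 and 2.08 in NCCRP1 clones, so clone 6 was the lowest of the 6 libraries (difference 0.08, SE 0.33; limma adjusted p = 0.989). IFITM3 reached 7.48 in clone 17, with the other 5 libraries between 6.55 and 6.87. The 3 genes are alike in sequence, and how shared reads were divided is not given in the sources used here, so their single values are uncertain.

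BST2 encodes tetherin, which holds budding virus at the cell surface, and it too was high in clone 17. It was at 2.08, 2.33 and 1.32 in mock clones and at 1.45, 2.003 and 3.17 in NCCRP1 clones. Clones 1 and 6 lay within the mock range, and clone 17 was 2.40-fold above the mock mean (difference 0.30, SE 0.43; limma adjusted p = 0.962). BST2, IFITM1 and HERC5 have ISRE matches in their windows, as do IFIT1, IFIT3 and RSAD2, which were above the mock clones in clone 6 as well.

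The immunoproteasome subunits PSMB8 and PSMB9, which shape peptides for display to T cells, were higher in clone 6 than in clone 17. PSMB9 was at 4.76, 5.23 and 4.32 in mock clones and at 4.94, 5.94 and 5.58 in NCCRP1 clones. Clone 6 was 2.25-fold and clone 17 1.75-fold above the mock mean, and clone 1 lay inside the mock range (difference 0.71, SE 0.28; limma adjusted p = 0.603). PSMB8 was likewise highest in clone 6, at 5.79, with 5.53 in clone 17 and 5.03 to 5.33 in mock clones.

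**Figure D5:**
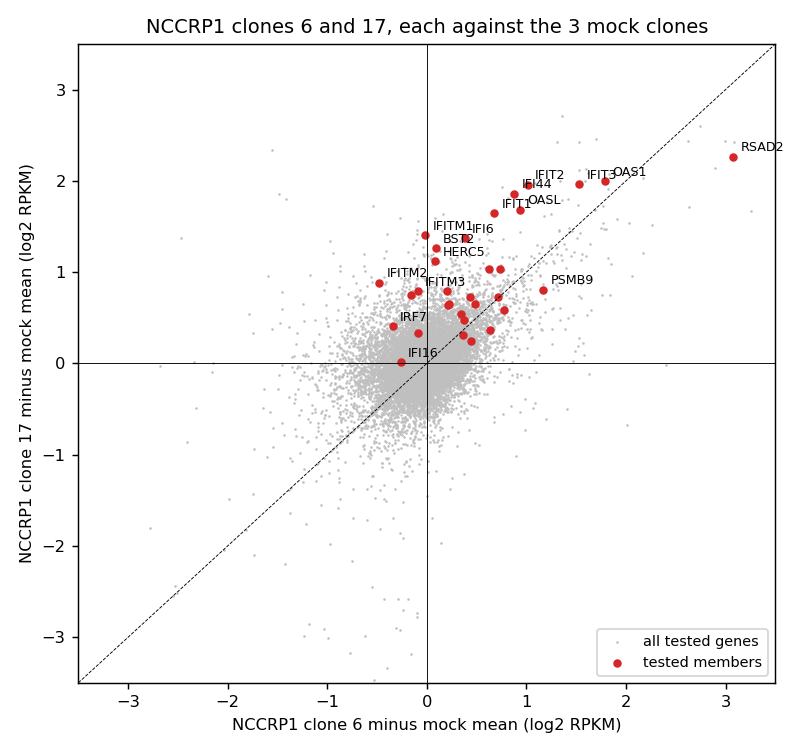
Difference from the mock mean in NCCRP1 clone 6 (horizontal axis) and clone 17 (vertical axis), both in log2 RPKM, for all tested genes (grey) and interferon-stimulated genes (red, some labelled); 5 tested genes lie outside the axes. IFITM1 and BST2 lie near 0 for clone 6 and at 1.40 and 1.26 for clone 17, while PSMB9 stands at 1.17 and 0.81.

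A few members barely separated the groups or did so with a narrow spread. IFI35, a leucine-zipper protein induced by interferon, was at 4.82, 4.83 and 4.91 in mock clones and at 5.06, 5.30 and 5.10 in NCCRP1 clones. It was the member in which clones 1 and 17 were most alike among those that did not overlap, with means of 4.86 ± 0.05 and 5.15 ± 0.13 (SD, n = 3 each; difference 0.30, SE 0.14; limma adjusted p = 0.683). IFI16, a nuclear DNA sensor, was at 5.20, 5.23 and 5.57 in mock clones and at 5.16, 5.07 and 5.35 in NCCRP1 clones, with a difference of -0.14. SAMD9, an antiviral factor, was at 1.41, 1.95 and 2.25 in mock clones and at 1.20, 2.21 and 2.41 in NCCRP1 clones, and its difference of 0.07 turned to -0.21 with run as a term. IFI27 was listed at 1.09, 0 and 0 in mock clones and at 0.13, 0.28 and 0.70 in NCCRP1 clones, so its highest value was in a mock clone. MX1, an antiviral GTPase, was at or under 0.27 in 5 libraries and at 0.87 in clone 17. The 13 tested members outside the named set had group differences from -0.14 to 0.43 and no adjusted p under 0.721. Among them were PARP9 and DTX3L, partners in a ubiquitin ligase complex, with differences of 0.40 and 0.33 and overlapping groups.

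Group differences of members with and without an ISRE match overlapped. Tested members with an ISRE match numbered 19 and had a median group difference of 0.40, from 0.01 to 2.01. The 8 with a window and no match had a median of 0.30, from -0.14 to 1.49, and the 5 without a window 0.24. By listed values, 14 members were above every mock clone and at least a log2 of 1 above the mock mean in any NCCRP1 clone. Of these 14, 12 had a window and 10 of the 12 an ISRE match. OAS1 and PSMB9 were the pair without a match. The OAS1 window holds GAAACGAAA, whose shorter spacing the search does not match. This run is not particular to OAS1: the RSAD2 window not shown and the OAS3 window hold it too. An MX1 window holds its complement TTTCGTTTC.

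Upstream of the list, all 21 interferon ligand genes, including IFNB1, IFNG and IFNL1, were listed at 0 in all 6 libraries. Of 19 genes of the interferon receptors and JAK-STAT signalling, 16 were tested and none passed in either direction. Their median difference was 0.17, 11 of the 16 had a higher NCCRP1 mean, and 5 did not overlap between groups, beside backgrounds of 46.7% and 5.71% of all tested genes. IFNGR1, a chain of the interferon gamma receptor, was at 3.49, 3.61 and 4.08 in mock clones and at 4.08, 4.31 and 4.23 in NCCRP1 clones (limma adjusted p = 0.531). Its NCCRP1 clone 1 value was close to that of mock clone 5, the highest mock clone. STAT6, the interleukin-4 signal carrier, had means of 4.71 ± 0.14 and 5.02 ± 0.14 (SD, n = 3 each; limma adjusted p = 0.683), and SOCS3, a feedback inhibitor, 4.21 ± 0.37 and 4.74 ± 0.41 (SD, n = 3 each; limma adjusted p = 0.659).

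Of 26 genes of nucleic-acid sensing, 20 were tested and none passed, with a median difference of 0.13 and 14 of the 20 higher by their mean (background 46.7%). STING1, the adaptor of the DNA sensor cGAS, was at 3.002, 3.18 and 3.23 in mock clones and at 3.33, 3.74 and 4.04 in NCCRP1 clones (limma adjusted p = 0.476). Its groups did not overlap, and its NCCRP1 clones were in the same order as those of IFIT3. MAVS, the adaptor of the RNA sensors, had values of 4.42, 4.49 and 4.76 in mock clones and 4.25, 4.32 and 4.36 in NCCRP1 clones, all lower (limma adjusted p = 0.795). IKBKE, a kinase that activates IRF factors, had means of 3.69 ± 0.41 and 4.23 ± 0.19 (SD, n = 3 each; limma adjusted p = 0.566), and IRF2, a relative of IRF1, 3.69 ± 0.32 and 4.04 ± 0.30 (SD, n = 3 each; limma adjusted p = 0.782).

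A further 79 genes known to respond to interferon, outside the 39, had 64 tested members and none that passed. Their median difference was 0.27, and 53 of the 64 had a higher NCCRP1 mean (background 46.7%). Of the 64, 13, 41 and 44 were above every mock clone in clones 1, 6 and 17, beside the backgrounds given above. SP110, a nuclear body protein, was at 2.29, 2.78 and 2.70 in mock clones and at 3.10, 3.35 and 3.41 in NCCRP1 clones (difference 0.69, SE 0.18; limma adjusted p = 0.316). Unlike most of the 39, SP110 was above every mock clone in clone 1 too. GBP3, a GTPase of the gamma response, was at 0.86, 1.88 and 1.41 in mock clones and at 1.87, 2.81 and 2.82 in NCCRP1 clones (difference 1.12, SE 0.32; limma adjusted p = 0.355). ZNFX1, an RNA-sensing helicase, had means of 4.17 ± 0.16 and 4.75 ± 0.31 (SD, n = 3 each; limma adjusted p = 0.393). NMI, a STAT-binding protein, had means of 3.63 ± 0.10 and 4.12 ± 0.21 (SD, n = 3 each; limma adjusted p = 0.417).

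Marker sums of the labelled cell type and of immune cells were set beside the list. The summed level of the 12 squamous markers was 1878 to 2320 RPKM over the mock group, 2513 RPKM in NCCRP1 clone 1, 1999 RPKM in clone 6 and 1304 RPKM in clone 17. In the NCCRP1 group this sum ran in the reverse of the list's order, and clone 17 was below every mock clone. It came mostly from KRT5, at 10.9, 10.2 and 9.54 log2 RPKM in NCCRP1 clones 1, 6 and 17. KRT6A, KRT14 and DSG3 ran in the same order, but KRT15, KRT17, TP63, SOX2, PKP1, EPCAM, CDH1 and EGFR did not. No squamous marker passed the test (limma adjusted p from 0.540 to 0.996). The summed level of the 14 immune markers was 7.50 to 9.69 RPKM over the mock group, 2.06 RPKM in NCCRP1 clone 1, 23.03 RPKM in clone 6 and 10.5 RPKM in clone 17, mostly from CD74, an antigen-presentation chaperone. That sum was highest in clone 6, the interferon-stimulated list in clone 17. The part of these markers in the result was not tested.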

How the data were processed

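RNA from 6 KYSE150 clones, 3 mock and 3 NCCRP1, was depleted of ribosomal RNA and sequenced on an Ion Torrent instrument, per the labels' protocols. The submitters' processing notes name hg19 and bedtools 2.25.0 without a role, and the aligner is not given in the sources used here. The authors deposited 1 value per gene and library, and the file headers call it RPKM. The deposited values are log2 RPKM: raised from log2, multiplied by transcript length and summed, they came to 1132550 to 1149540 per library, near the scale on which RPKM is defined, whereas natural logarithms would give at least 11545000. Depth was estimated from the whole-read steps of microRNA genes. The candidate depth with the largest share of low values whole to within 0.005 of a step was taken. That share was 24.1% to 33.8%, and its median over candidate depths was 0.64% to 0.75%. The 1% expected by chance holds for a fixed depth and not for the best of many. At 1 RPKM the estimated depths give 12.3 to 18.1 reads per kilobase, which limits values near 0. Too few values were whole for a count model.

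The groups were tested on the deposited log2 values in R 4.3.3 using limma 3.58.1 (two-sided, trended and robust; group as the sole term; 12737 genes above 0 in at least 3 of 6 libraries; Benjamini-Hochberg adjustment). No pseudocount was added, since the values were already logarithms. No exact permutation test of single genes was run, because 3 against 3 cannot go below p = 0.1. The test was checked on simulated data. Full values are given for members with the 8 lowest p, those above every mock clone and a log2 of at least 1 above the mock mean in an NCCRP1 clone, the 4 with the smallest differences, and up to 4 per pathway list, 1 of which is not reported here. Other members named were chosen after their values were seen. The members and lists were chosen with earlier results of these data known. Alternatives changed the filter, pseudocount, listed zeros, empirical Bayes, centring, run, GC content (available for 97.6% of tested genes), neighbouring genes and each clone in turn.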

Additional observations from a re-analysis of the deposited data

How the results depend on the processing

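With the same 6 clones, no interferon-stimulated gene passed the test under any of the other filters, pseudocounts, treatments of listed zeros, empirical Bayes settings, centring, run term, GC or neighbour corrections. The list's mean difference stayed above 0 throughout, from 0.38 with run as a term to 0.74 with log2(RPKM + 0.1), and its median difference from 0.25 to 0.42. Leaving out each clone in turn gave 0 to 2 members called, a mean difference of 0.25 to 0.75 and a median difference of 0.17 to 0.59, the lowest without NCCRP1 clone 17 and the highest without NCCRP1 clone 1. By listed values, members above every mock clone and at least a log2 of 1 above the mock mean were also counted with mock clones left out. Their number was 0 to 1 in clone 1, 3 to 6 in clone 6 and 10 to 15 in clone 17. At 1.5 times in place of a log2 of 1, with all mock clones, the numbers were 1, 13 and 23. No paired analysis was run, because the labels give no pairing between mock and NCCRP1 clones.

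Over all tested genes, 9 were called higher and 4 lower. The calls were 12 and 4 when genes averaging under 1 log2 RPKM were dropped, 9 and 4 after centring, 1 and 2 with no filter, 2 and 2 with log2(RPKM + 1), 1 and 0 with log2(RPKM + 0.1), 1 and 1 with listed zeros as missing, 2 and 3 without robust estimation, 2 and 0 with run as a term, 3 and 1 after the GC correction, and 6 and 3 after the neighbour correction. Leaving out single clones gave 0 to 24 higher and 0 to 5 lower, the most without NCCRP1 clone 1 and none without mock clone 5. The cause of these shifts was not tested.

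Several larger differences depended on single clones, to unlike degrees. Without NCCRP1 clone 17 the difference was 0.22 for IFI44, 0.11 for IFI6, 0.34 for IFIT1, 0.17 for IFIH1 and 0.15 for IFITM1. For IFIT2 and OASL, at 1.09 and 0.95 over all clones, the difference was still 0.66 and 0.58. Without NCCRP1 clone 1 it was 1.37 for IFI44, 0.88 for IFI6, 1.16 for IFIT1 and 0.83 for IFIH1, and without clone 6 it was 0.86 for IFITM1. With log2(RPKM + 0.1), where a listed 0 counts as 0 RPKM, it was 4.22 for RSAD2, 2.58 for OAS1, 2.31 for IFI27 and 1.45 for HERC5, and with log2(RPKM + 1) it was 0.65 for IFI27 and 0.53 for HERC5. Small differences changed sign. SAMD9 went to -0.21 with run as a term, and to -0.16 to 0.44 without single clones. IFI27 went to -0.00384 and -0.00528 after the GC and neighbour corrections, and to -0.17 to 0.37 without single clones. Without single clones, IFITM2 ranged from -0.32 to 0.36, IRF7 from -0.32 to 0.0508, BST2 from -0.19 to 0.68 and HERC5 from -0.0850 to 0.60. For IFITM2, BST2 and HERC5 the lowest value came without NCCRP1 clone 17. The floor at 1 RPKM limits low genes: a difference below it could not be seen.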

Other observations

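Several interferon-responsive genes outside the 39 were also high in NCCRP1 clones 6 and 17. These genes were picked from their values, and none passed the test (limma, adjusted over all tested genes) or, where listed above 0 in under 3 libraries, was tested. CCL5, a T-cell chemokine, was at 3.07, 3.63 and 2.23 log2 RPKM in mock clones 1, 4 and 5 and at 3.19, 4.58 and 5.11 in NCCRP1 clones 1, 6 and 17. TRIM22, an antiviral ubiquitin ligase, was at 1.69, 2.22 and 0.98 in mock clones and at 1.59, 3.22 and 3.63 in NCCRP1 clones. APOL1, a secreted apolipoprotein, was listed at 0.24, 0.76 and 0 in mock clones and at 0, 1.95 and 2.42 in NCCRP1 clones. In all 3 genes clone 1 lay within the mock range.

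A further set was listed at 0 in every mock clone and in NCCRP1 clone 1. IDO1, the tryptophan-degrading enzyme, was listed at 1.00 and 0.85 in clones 6 and 17, RTP4 at 0.72 and 1.20, and APOL3 at 0.72 and 0.93. CXCL9 and CXCL11, chemokines of the gamma response, were listed at 0 in all 6 libraries. In the other direction, NLRC5, a regulator of antigen-presentation genes, was at 4.46, 4.75 and 4.49 in mock clones and at 4.15, 4.09 and 4.17 in NCCRP1 clones, with no overlap (limma adjusted p = 0.451).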
